A study of Mus musculus with 6 samples.

Results

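Dense clusters of distal regions are stretches of the genome where several accessible regions without an assigned gene lie close together. A distal region was here a row of the authors' table with no gene, and it was a member when at least 4 other distal regions of its chromosome had centres within 12.5 kb of its own, on autosomes only. The rule read positions and no signal values. It took 2449 of the 63430 regions in the table, which is 6.03% of the 40615 distal regions on the 19 autosomes. Of the members, 1618 had exactly 4 such regions nearby, 585 had 5 and 246 had 6 or more, up to 8. Just outside the rule lay 3656 distal regions with exactly 3.

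The accessible regions were those of NIH/3T3 cells, a fibroblast line from mouse embryos, measured by ATAC-seq, in which the transposase Tn5 cuts and tags open chromatin. All 6 libraries came from cells with a knock-in of Cas13d, an enzyme that cuts RNA at sites chosen by a guide RNA, and all had been transfected with a guide. In 3 libraries the guide targeted the mRNA of Actg1, which encodes cytoplasmic gamma-actin (titles sg3-KD), and in the 3 control libraries it targeted GFP (titles GFP-KD). Per the series text, the comparison asks how mRNA decay takes part in transcriptional adaptation, a response of related genes to the decay of a transcript. Tn5 worked for 30 min at 37 °C on 25000 cells per library. Whether the knock-in line is 1 clone is not given in the sources used here. ATAC-seq measures no mRNA, so neither the knockdown of Actg1 nor fibroblast marker transcripts could be checked.

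Open regions away from promoters include enhancers, which bind transcription factors and raise transcription of genes that can lie far along the chromosome. Enhancers that lie near each other are often described as one unit, because they can share factors, a target gene and a stretch of open chromatin, and programs that define super-enhancers join neighbouring enhancers before ranking them by the signal of a factor or histone mark. No such mark was measured here, and the clusters below are defined by spacing alone. In fibroblasts, distal regions commonly carry motifs of AP-1 and TEAD factors, and serum response factor (SRF) with its actin-regulated coactivators binds CArG boxes near cytoskeletal genes.

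Signal is the authors' read count per region after normalization, rounded to whole numbers, and its total over all regions lay between 7673745 and 7831438 per library. Estimated reads in regions ranged from 5675889 to 9526231. The first and second GFP guide libraries were as alike as repeat counts of 1 library would be, so their mean entered as 1 sample, and SDs of the GFP guide come from that mean and the third library (n = 2), against n = 3 for the Actg1 guide. The labels speak of biological replicates without naming separate cultures, so p-values measure the spread of these samples, which may be technical. A region or cluster was called when limma's Benjamini-Hochberg adjusted p was under 0.05, and log2 fold changes are Actg1 guide over GFP guide on the log2(signal + 1) scale, which understates changes of weak regions. Fewer cells with a region open and less cutting per cell cannot be told apart in such bulk samples. Members held 3.53% to 3.58% of the signal in the GFP guide libraries and 3.40% to 3.50% in the Actg1 guide libraries.

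For most members no sequence was given, but 53 overlapped the start window of a gene in the RefSeq table of build GRCm38.p6 (mm10). A start window includes the 250 bases before the gene start, so some of the 53 do not reach the start itself. The stretches before 5 starts are shown. They were picked by hand among the members that were called as changed with the Actg1 guide, and other members at start windows were also called. The 59 start windows at members belonged to 51 genes, 27 protein-coding and 24 for long non-coding RNAs (lncRNAs). Each sequence below is the 250 bases before the gene start, 5′ to 3′ on the gene's strand, with an AP-1 motif (TGANTCA) or a TEAD motif (GGAATG) in capitals where the script found one on either strand. Gm30153 is an lncRNA gene in a cluster 11.8 kb from Cdk18, with the stretch at chr1:132145227-132145476 on the minus strand. Gm51774 is an lncRNA gene in a cluster 20.4 kb from Col6a2, a collagen VI gene, at chr10:76642808-76643057 on the plus strand. Gm51887 is an lncRNA gene in a cluster at Sptbn1, a spectrin gene, at chr11:30221402-30221651 on the plus strand. The Synj2 stretch, at chr17:5975330-5975579 on the plus strand, belongs to 1 of the gene's start sites, and that of Dab2ip lies at chr2:35691744-35691993 on the plus strand.
Gm30153: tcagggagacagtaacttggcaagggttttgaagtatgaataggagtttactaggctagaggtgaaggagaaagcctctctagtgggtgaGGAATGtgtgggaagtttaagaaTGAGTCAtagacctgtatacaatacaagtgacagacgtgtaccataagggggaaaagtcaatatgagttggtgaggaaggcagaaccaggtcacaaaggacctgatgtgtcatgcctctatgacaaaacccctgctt
Gm51774: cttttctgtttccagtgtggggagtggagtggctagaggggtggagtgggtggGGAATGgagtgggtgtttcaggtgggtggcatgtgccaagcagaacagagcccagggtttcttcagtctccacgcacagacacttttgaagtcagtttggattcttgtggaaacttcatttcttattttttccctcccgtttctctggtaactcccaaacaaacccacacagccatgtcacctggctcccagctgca
Gm51887: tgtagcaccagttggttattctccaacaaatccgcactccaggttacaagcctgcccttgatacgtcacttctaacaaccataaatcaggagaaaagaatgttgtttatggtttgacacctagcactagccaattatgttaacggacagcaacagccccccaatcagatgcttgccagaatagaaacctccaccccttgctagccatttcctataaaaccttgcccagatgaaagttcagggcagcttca
Synj2: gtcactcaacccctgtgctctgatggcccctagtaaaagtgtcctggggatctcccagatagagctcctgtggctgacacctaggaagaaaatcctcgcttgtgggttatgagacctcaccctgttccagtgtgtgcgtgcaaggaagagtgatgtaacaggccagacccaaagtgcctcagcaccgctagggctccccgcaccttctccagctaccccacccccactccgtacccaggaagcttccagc
Dab2ip: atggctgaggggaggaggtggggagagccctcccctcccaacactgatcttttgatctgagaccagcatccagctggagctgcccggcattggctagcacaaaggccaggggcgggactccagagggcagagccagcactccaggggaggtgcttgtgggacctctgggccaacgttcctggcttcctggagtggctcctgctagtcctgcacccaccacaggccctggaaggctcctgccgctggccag

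The member at the Gm30153 start gained signal and those at Gm51774, Gm51887 and Dab2ip lost it. At Gm30153 the libraries read 35, 32 and 46 with the GFP guide and 87, 89 and 96 with the Actg1 guide, or 1.19 on the log2 scale (SE 0.16; limma, adjusted p = 1.21e-07). At Gm51887 they read 123, 140 and 103 against 53, 42 and 38, a fall by 1.39 on the log2 scale. Gm51774 went from 86, 98 and 79 to 35, 42 and 42. At each of these 3 starts the groups did not overlap. Dab2ip, which encodes a Ras GTPase-activating protein, went from 273, 262 and 280 to 171, 153 and 185. The Synj2 start rose from 443, 434 and 421 to 553, 552 and 571, a smaller change, although the groups did not overlap either. Over all 53 members at a start window, all of them tested, 7 were called higher and 17 lower, together 45.3%. Of all tested regions 41.3% were called, and of tested members 49.9%.

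Motif searches in these start windows are descriptions of letters and not of binding. The AP-1 motif occurred in 7 of 59 member windows (11.9%), against 6.77% of all 31396 autosomal windows of the table. The TEAD motif occurred in 10 (16.9%, against 12.5%), the RUNX motif TGTGGT in 12 (20.3%, against 14%) and the ETS motif CCGGAA in 8 (13.6%, against 12.2%). No member window held a CArG box, against 1.41% of all windows. Overlapping windows of 1 gene were counted separately. Those of Gm33315 share an AP-1 motif, those of Gm41512 a RUNX motif and those of Plekhg5 an ETS motif. Of the 59 member windows 27 belonged to lncRNA genes, and the windows were not matched for this. Both strands were searched; the TEAD and ETS motifs share the letters GGAA and can be counted at 1 place, and the TEAD motif can begin in the last letters of a CArG box.

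Members were joined into clusters where the centres of neighbouring members lay within 12.5 kb. This gave 535 clusters of 2 or more members, which held 2268 members, and left 181 members alone, with non-member regions around them. There were 261 clusters of 5 or more, and the largest held 12. The median span was 10.8 kb and the longest, at Tns1, 69.3 kb. Members were stronger than other distal regions, with a median signal of 63.5 against 39, and weaker than the 11784 promoter regions, with centres within 1 kb of their gene's start, which had 242. Their length was alike, with a median of 310 bp against 309 bp. Within a cluster the signal was uneven: in the 249 clusters with at least 5 tested members, the strongest member held a median of 38.8% of the cluster's signal. Set against protein-coding genes of the RefSeq table, all members of 264 clusters lay inside 1 gene body, and 238 clusters had no member inside a gene body, at a median of 39.4 kb from the nearest one. Some of these 238 hold the start of an lncRNA gene, such as the clusters of Gm30153 and Gm51774.

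Between the guides, members fell somewhat more often than they rose. Of 2409 tested members, 522 were called higher and 680 lower, which is 49.9%, where 41.3% of all 61327 tested regions were called (20.6% higher and 20.7% lower). Among distal regions that were not members, 43.7% were called (22.3% higher and 21.4% lower). The changes were mostly small, with a median absolute log2 fold change of 0.36 against 0.39 in other distal regions. At least 2-fold changes were called in 106 members upward and 205 downward (12.9%, against 15.3% of other distal regions and 12.2% of all regions). The 3 libraries of a group did not overlap those of the other in 1398 members (58.0%, against 50.8% of all regions). Just inside the rule, with exactly 4 regions nearby, 49.8% were called at a median signal of 63.7, and just outside, with 3, 47.1% at a median of 54.2. Without the third GFP guide library 626 members were called in place of 1202, 282 higher and 344 lower.

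These shares moved with signal. In the top signal quintile of all regions, 60.5% of members were called, 100 higher and 140 lower, against 54.1% of other distal regions, 780 higher and 1139 lower. In the lowest quintile the shares were 43.0% and 32.7%, and in the middle quintile 46.3% and 47.9%. Whether density itself goes with a higher share was not tested.

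Neighbours in a cluster leaned to the same direction, but weakly. Among 1696 pairs of adjacent tested members of 1 cluster, 969 had log2 fold changes of the same sign (57.1%), where pairs of members on different chromosomes gave 50.2%. Pearson's r between the log2 fold changes of the adjacent members was 0.20 and Spearman's rank correlation 0.21, over pairs that share members, libraries and in part depth. When both were called, 290 of 435 pairs went the same way (66.7%), against 50.8% on different chromosomes. Of these 435 pairs, 145 therefore held one region called higher next to one called lower.

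The lean to the same direction was strongest at the shortest spacing by most measures and faded at larger distances. Adjacent members within 1 kb had the same sign in 60.9% of 297 pairs and, at 4 to 8 kb, in 54.7% of 422. Over the same ranges r fell from 0.33 to 0.14 and the share with both called from 72.7% to 61.3%, while at 8 to 12.5 kb the values were 0.22 and 73.3%, the latter of 30 pairs. A member and a distal region 12.5 to 25 kb away shared sign in 56.6% of pairs, at 25 to 50 kb in 55.6%, at 50 to 100 kb in 52.4% and at 100 to 250 kb in 50.0%. These farther pairs took any distal region in the range, adjacent or not, and could include members of the same cluster. They are not like for like with the adjacent pairs. Adjacent distal regions outside the clusters, taken over the same distances, had the same sign in 60.7% of 13443 pairs and in 74.5% of the 3026 with both called. Within 1 kb those outside pairs shared sign in 68.3%, and 86.5% of those with both called. The values of clustered pairs thus lay below those of unclustered pairs in 4 of the 5 distance ranges for all pairs; this difference was not tested. Replicates showed a weaker relation: within a group, the deviations of adjacent members from their group mean correlated at -0.017 to 0.057.

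**Figure D1:**
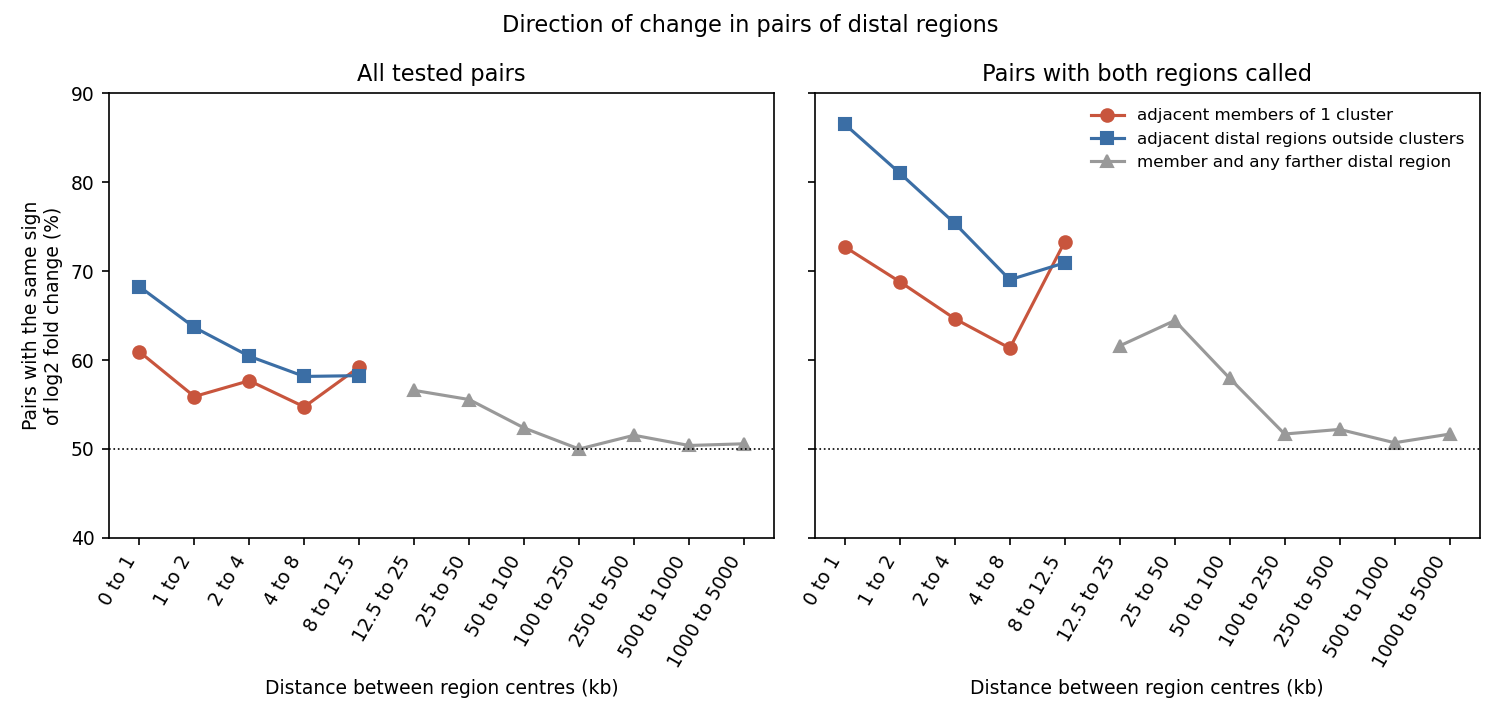
Share of pairs with log2 fold changes of the same sign (vertical axis, percent) by the distance between region centres (horizontal axis, kb), for adjacent members of 1 cluster, adjacent distal regions outside clusters, and members with farther distal regions; one panel takes all tested pairs and the other pairs with both regions called. Clustered pairs within 1 kb sit at 60.9% for all pairs and unclustered ones at 68.3%, and the share falls to 50.0% at 100 to 250 kb.

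Taken over whole clusters, most of the variation in change lay inside them. Between-cluster differences made up 15% of the variance of the log2 fold change among 2227 tested members of 531 clusters, with an SD of 0.26 between clusters and 0.62 within, where the root mean square standard error of a single region was 0.20. The strongest and the weakest member of a cluster shared their sign in 58.6% of the 249 clusters with at least 5 tested members. The weakest member moved further, with a median absolute log2 fold change of 0.56 against 0.26, and 58 of the weakest but 8 of the strongest changed at least 2-fold and were called. The strongest were nevertheless called more often, at 53.8% against 45.8%, and had a median signal of 212.5 against 25.3.

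Each distal region was also tested directly against its surroundings, by fitting limma to the difference between its log2 signal and the mean log2 signal of the other tested distal regions within 12.5 kb. Of 2409 members, 313 moved above and 315 below their neighbours (26.1%), where 27.4% of all 24942 regions tested in this way were called. The members called in this test thus made up a share near that of all regions. Of the 628, 492 had been called in the same direction on their own, 129 had no call of their own and 7 had a call in the opposite direction. The count was 122 without the third GFP guide library and 409 without the first Actg1 guide library.

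When the members of each cluster were summed, 130 of 535 clusters were called higher and 194 lower (60.6%), where 41.1% of the rows of that table were called. A sum counts more reads than a single region, and the shares are not like for like. Changes of whole clusters were small: the median log2 fold change was -0.06, and 4 clusters rose and 8 fell at least 2-fold. Of 325 clusters with 2 or more called members, 70 held members called higher only, 95 lower only and 160 both. Among clusters of 2 members, 8 of 37 with both called were mixed, and among clusters of 8 to 12 members 19 of 24 were. A cluster with more called members can more readily hold both directions, so these counts are not like for like. A sum could hide mixed calls: 83 clusters that were not called held called members of both directions. A further 77 called clusters held a member called the other way. Without the third GFP guide library 189 clusters were called in place of 324.

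**Figure D2:**
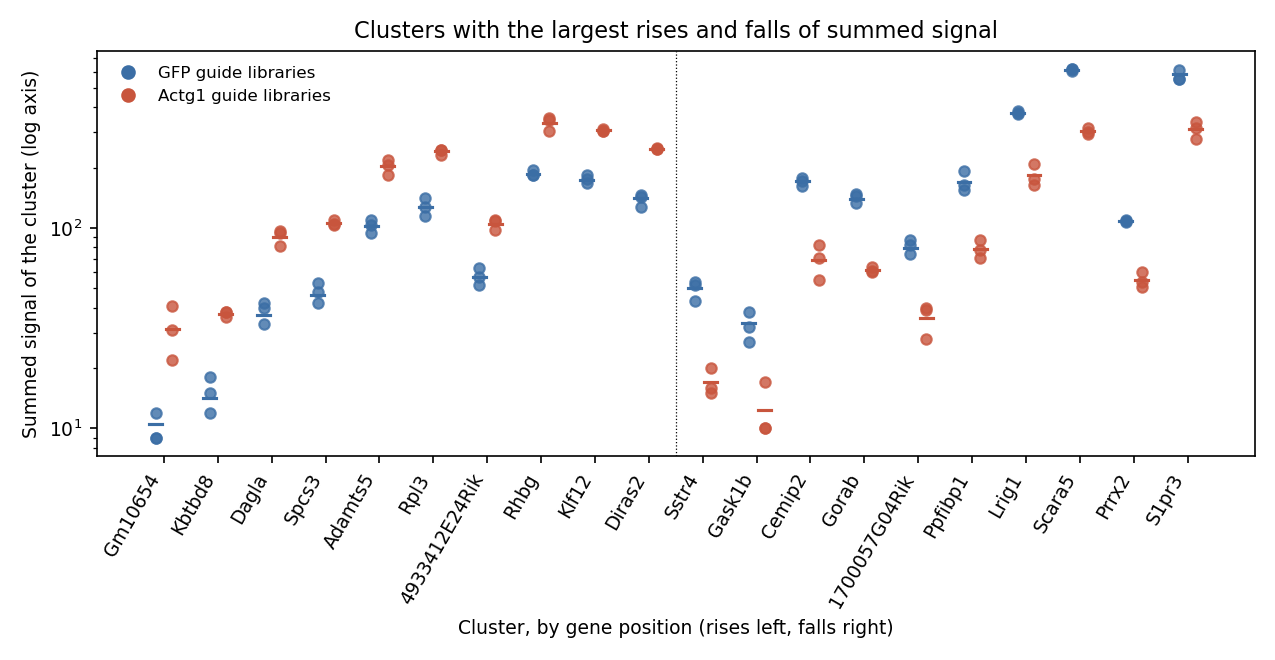
Summed signal in each library (vertical, log scale) of the clusters with the 10 largest called rises and the 10 largest called falls. Clusters stand along the horizontal axis by gene position, rises left and falls right. Colours mark GFP guide and Actg1 guide libraries, and short lines mark the group means. The log2 fold changes of these clusters run from -1.52 to 1.46.

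Clusters wholly inside 1 protein-coding gene body were called lower more often than higher. Of the 264 clusters that lay wholly inside 1 gene body, 43 were called higher and 114 lower, with a median log2 fold change of -0.11, and of the 238 with no member inside a protein-coding gene, 74 were higher and 68 lower, with a median of 0.02. This difference was seen after the values and was not tested, nor set against unclustered distal regions inside gene bodies. Of the 33 clusters with only some members inside a gene body, 13 were called higher and 12 lower. The change of a cluster gave little information on that of the nearest protein-coding promoter: over 345 clusters with a promoter region within 100 kb, r was 0.0054 between the change of the cluster and that of the promoter, and 30 of 61 pairs with both called went the same way (49.2%). Gene names in what follows are those of the protein-coding gene that holds a cluster or lies nearest to it, whether or not an lncRNA gene lies closer, and say nothing of which gene a cluster serves.

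The largest clusters show how far members of 1 cluster can differ. The Synj2 cluster (chr17:5975179-6008322) held 12 members, all inside the gene for synaptojanin 2, an inositol phosphate phosphatase of membrane traffic. Its summed signal was 2291, 2253 and 2229 with the GFP guide and 2175, 2273 and 2326 with the Actg1 guide. The groups overlapped, and the means of 2250.5 ± 30.4 (SD, n = 2) and 2258 ± 76.6 (SD, n = 3) gave 0.00 on the log2 scale (limma, adjusted p = 0.934). Inside this level sum, 2 members were called higher and 5 lower. The member at chr17:5983253-5983452 went from 33, 26 and 30 to 105, 114 and 107, or 1.83 on the log2 scale (SE 0.16; limma, adjusted p = 1.40e-12). The next member, 1.58 kb further at chr17:5984863-5985008, went from 51, 40 and 33 to 18, 9 and 21, a fall by 1.30. Neither member's groups overlapped, and both differed from their neighbours in the direct test (limma adjusted p = 0.00353 and 0.0395). The second of these differences lost its call without GFP guide replicate 1 (limma adjusted p = 0.0513) or 3 (0.111) and without Actg1 guide replicate 1 (0.0580). The 2 members after that fell by 0.81 and 1.17, and 5 of the 12 were not called.

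**Figure D3:**
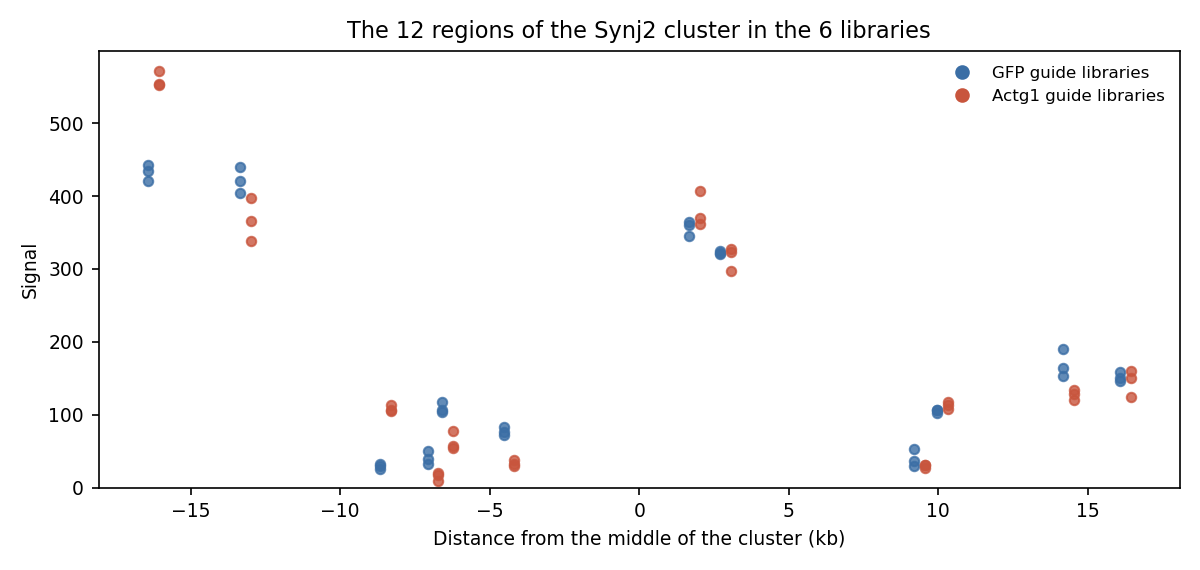
The 12 members of the Synj2 cluster by distance from the middle of the cluster (horizontal, kb), with the signal of each library (vertical) for the GFP guide and the Actg1 guide. The member that rose from a GFP guide mean of 29.8 to 109 stands next to 3 members that fell.

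Other large clusters were lopsided rather than balanced. The 12 members near Trabd2b, whose product cleaves Wnt proteins, lay 36.7 kb from the gene and summed to 807, 868 and 917 with the GFP guide and 725, 736 and 769 with the Actg1 guide, -0.24 on the log2 scale (limma, adjusted p = 0.000294). Without the third GFP guide library the value was -0.17 and the call was lost (limma adjusted p = 0.0799). One member there rose, from 75, 83 and 96 to 143, 174 and 156, and 4 fell, among them chr4:114386429-114386806 from 165, 157 and 141 to 36, 32 and 50. At Aopep, an aminopeptidase gene, 4 of 11 members fell and none was called higher, and the sum fell by 0.37. The steepest fall there took chr13:63094358-63094764 from 84, 84 and 73 to 14, 22 and 20. At Tns1, which encodes the focal adhesion protein tensin 1, 6 of 10 members fell and none was called higher. The Tns1 sum went from 850, 860 and 859 to 612, 601 and 654, without overlap, or -0.46 on the log2 scale (SE 0.054; limma, adjusted p = 4.26e-09). Its widest loss, at chr1:74041804-74042000, ran from 53, 44 and 46 to 11, 14 and 22.

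The remaining clusters among the 8 largest held calls in both directions. At Ahnak, a gene for a large scaffold protein, 5 of 11 members rose and 2 fell, with a summed log2 fold change of 0.14. At Dlc1, which encodes a GTPase-activating protein, 2 of 10 rose and 3 fell, with -0.18. Near Tasp1, a protease gene, 1 of 10 rose and 2 fell, with 0.12, and at Tmem44 3 of 9 rose and 1 fell, with 0.02. The Tasp1 cluster held the member chr2:140082290-140082466, which fell from 21, 25 and 24 to 3, 1 and 6, a log2 fold change of -2.68. The summed changes at Ahnak and Dlc1 were called, but not without the third GFP guide library (limma adjusted p = 0.0740 and 0.0716). That of Tasp1 (limma adjusted p = 0.0418) was lost without GFP guide replicate 1 or 3 and without Actg1 guide replicate 2 or 3, with limma adjusted p-values from 0.0689 to 0.137.

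**Figure D4:**
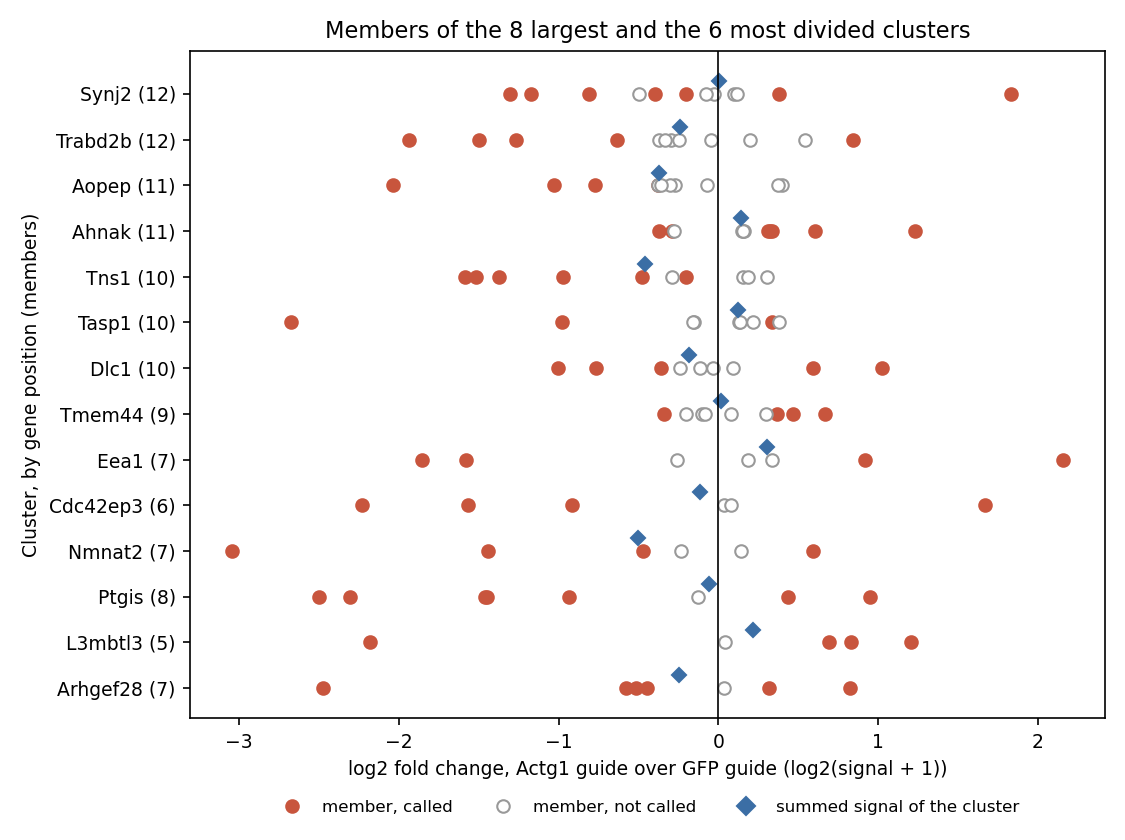
Log2 fold change, Actg1 guide over GFP guide, of every tested member (points, horizontal axis), by cluster (vertical axis). The clusters are those with most members and those picked for the widest gap between called members. The change of the summed signal is marked for each cluster. Members of the Synj2 cluster run from -1.30 to 1.83 around a sum at 0.00, and in the Tns1 cluster no member called higher faces the 6 called lower.

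Clusters with every tested member on 1 side of 0 existed but were few. Of the 249 clusters with at least 5 tested members, 28 were of this kind, 18 above 0 and 10 below. The number expected from unrelated signs was not worked out. Such a cluster need not hold many called members: near Dyrk2, 1 of 5 was called. In 3 of the 28, at Scara5, Syne1 and Gm39701, every member was called, all 3 downward. The clusters at Syne1, Synpo, Morn1, Mindy4, Zpld1, Mreg and Dyrk2 were picked out after their values were seen. Scara5 encodes a scavenger receptor that binds ferritin, and its cluster of 5 (chr14:65691175-65706419) summed to 608, 619 and 619 with the GFP guide and 316, 293 and 301 with the Actg1 guide. The means of 616 ± 3.89 (SD, n = 2) and 303 ± 11.7 (SD, n = 3) gave -1.02 on the log2 scale (SE 0.068; limma, adjusted p = 1.78e-15). Its strongest member, chr14:65691175-65692058, went from 292, 263 and 314 to 144, 132 and 135, and the other 4 had log2 fold changes from -0.73 to -1.74. The weakest, chr14:65706264-65706419, read 11, 29 and 28 and then 10, 4 and 11, so its groups touched. At chr14:65703750-65703942 the GFP guide libraries were also uneven, at 16, 47 and 30. None of the 5 differed from its neighbours in the direct test.

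At Syne1, which encodes nesprin 1, a nuclear envelope protein that connects to actin, the 5 members summed to 458, 469 and 449 and then 286, 272 and 288, a log2 fold change of -0.69. The falls ran from -0.61 to -1.48. The most members on 1 side of 0 were the 8 at Synpo, the gene for the actin-binding protein synaptopodin (chr18:60609298-60633217), where 6 were called lower. The Synpo sum went from 1183, 1249 and 1233 to 894, 910 and 937, a log2 fold change of -0.42, and its weaker members fell by more: chr18:60632585-60633217 went from 104, 82 and 95 to 46, 39 and 33, while the strongest, chr18:60609298-60609987, read 447, 471 and 472 and then 422, 415 and 419 (log2 fold change -0.15, limma adjusted p = 0.0559, and 0.0399 without GFP guide replicate 1). All 7 members at Morn1 lay below 0, 5 of them called, and so did all 6 at Mindy4, with sums down by 0.47 and 0.75. Upward, all 6 members near Zpld1 and all 6 near Mreg lay above 0, with 5 called in each and summed log2 fold changes of 0.40 and 0.40.

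The largest summed falls were mostly in clusters of 2. The 2 members near Sstr4, a somatostatin receptor gene, went from 54, 43 and 52 to 15, 16 and 20, -1.52 on the log2 scale (limma, adjusted p = 3.16e-06). The sum of the 2 inside Cemip2, a hyaluronidase gene, went from 178, 162 and 171 to 82, 55 and 71. Only 1 of these 2 was called lower, with a log2 fold change of -1.56, and the other had -0.22. Both differed from their neighbours in the direct test. The Lrig1 pair fell from 368, 373 and 381 to 164, 175 and 209, and Lrig1 encodes a membrane protein that restrains epidermal growth factor receptors. The S1pr3 pair, 94.5 kb from this sphingosine-1-phosphate receptor gene, fell from 553, 553 and 615 to 279, 316 and 336, and the Prrx2 pair, in a mesenchymal homeobox gene, from 110, 107 and 108 to 51, 60 and 54. In each of these sums the groups did not overlap. The others among the 10 were clusters in or nearest to Gask1b, Gorab, 1700057G04Rik and Ppfibp1, with log2 fold changes from -1.09 to -1.41, and Scara5; the Gask1b call was lost without the third GFP guide library (limma adjusted p = 0.0698).

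The largest summed rises were in weak clusters. The Gm10654 cluster, 51.9 kb from that gene and with 1 of its 2 members tested, went from 9, 9 and 12 to 31, 41 and 22, or 1.46 on the log2 scale (SE 0.29; limma, adjusted p = 9.28e-05). Clusters near Kbtbd8, Dagla, a gene of endocannabinoid synthesis, and Spcs3, a signal peptidase gene, rose by 1.35, 1.27 and 1.18. The Adamts5 cluster, 471 kb from this aggrecanase gene, held 5 members, of which 3 rose, and summed to 109, 94 and 103 and then 219, 206 and 183. Its first member, chr16:86366353-86366583, rose from 8, 7 and 8 to 58, 38 and 43, while the last, at chr16:86378094-86378241, read 16, 13 and 14 and then 10, 14 and 9 and differed from its neighbours (limma adjusted p = 0.00519). All 3 members in Klf12, a gene for a zinc finger repressor, rose, with sums of 184, 175 and 168 and then 312, 305 and 305. At Rhbg, an ammonium transporter gene, 4 of 5 rose, from a sum of 195, 184 and 183 to 354, 347 and 305, and near Diras2 3 of 5 rose. The clusters near Rpl3 and 4933412E24Rik completed the 10, with log2 fold changes of 0.91 and 0.86.

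The strongest clusters changed little, with 1 exception. The cluster at Gm39701 (chr1:170942327-170947019) had the highest signal, 4215, 4354 and 5588 with the GFP guide and 3740, 3611 and 3700 with the Actg1 guide, -0.41 on the log2 scale (limma, adjusted p = 1.15e-09). All 5 members fell by 0.32 to 0.43. The third GFP guide library stood above the other 2 in every one of these members; without it the sum still fell, by 0.22, and the calls of chr1:170944987-170945176 and chr1:170945392-170945541 were lost (limma adjusted p = 0.0522 and 0.382). The latter was also lost without Actg1 guide replicate 1 or 2 (0.0697 and 0.0928 by limma). Under quantile normalization the cluster's summed change was 0, because that method gives 1 value to a row with the same rank in every sample. Next came the cluster at Plec, the gene of the cytoskeletal linker plectin, with a log2 fold change of -0.02 over 7 members, and that near Cd9, a tetraspanin gene, with -0.02 over 8. Dlgap1 followed with 0.06, then Synj2 with 0.00, and Lmna, the gene of lamins A and C, with 0.08 (limma adjusted p = 0.0398, lost without GFP guide replicate 1 or 3, without Actg1 guide replicate 1 or 3 and under quantile normalization, with adjusted p from 0.0501 to 0.206). Even here members differed: at Plec, chr15:76198190-76199131 rose from 523, 566 and 538 to 638, 591 and 594 (limma adjusted p = 0.0202), and chr15:76207302-76207946 fell from 469, 513 and 489 to 418, 406 and 408. The Plec rise lost its call without GFP guide replicate 1 or 3 or Actg1 guide replicate 1 (limma adjusted p from 0.0673 to 0.157).

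Some adjacent members moved far apart. The 145 opposite pairs differed by a median of 1.27 in log2 fold change, 100 of them by at least 2-fold, and 21 had centres closer than 1 kb. In 123 of them at least 1 region was also called in the direct test against neighbours. The neighbours in that test include the oppositely called region of the pair, so this count is no separate support. In the cluster 169 kb from Eea1, an endosomal tether gene, chr10:95768909-95769274 rose from 16, 21 and 22 to 104, 101 and 78, and chr10:95773824-95774171, 4.91 kb on, fell from 24, 40 and 31 to 8, 9 and 7. The gap between their log2 fold changes was 4.02, and neither region's groups overlapped. In the cluster in Lpin2, a gene of lipid synthesis, chr17:71193007-71193274 rose from 35, 30 and 25 to 83, 107 and 89, and chr17:71193573-71193894, with its centre 0.593 kb away, fell from 104, 114 and 116 to 41, 53 and 46. In the cluster in Clpb, a gene for a mitochondrial chaperone, a single region between 2 that rose, chr7:101754596-101754813, fell from 18, 17 and 18 to 6, 3 and 6, a call that was lost without the third GFP guide library (limma adjusted p = 0.0849). The Lpin2 and Clpb pairs were chosen after their values were seen.

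The other clusters with the widest gap between called members repeated this picture at other signal levels. At Ptgis, the gene of prostacyclin synthase, 5 of 8 members fell and 2 rose, and the sum did not change by the test (log2 fold change -0.06, limma adjusted p = 0.433). The Ptgis cluster's strongest member, chr2:167263319-167263903, rose from 317, 310 and 325 to 461, 418 and 421, and the region before it, chr2:167261212-167261485, fell from 101, 86 and 104 to 19, 16 and 23. The largest fall among the members of these clusters was at Nmnat2, a gene of NAD synthesis, where chr1:153065756-153066090 went from 63, 44 and 58 to 2, 8 and 11, a log2 fold change of -3.05 (SE 0.38). In the same cluster chr1:153049844-153050248 rose from 38, 36 and 39 to 54, 62 and 58, though not by the test without the third GFP guide library (limma adjusted p = 0.0562). Near Cdc42ep3, which encodes an effector of the GTPase Cdc42, chr17:79290525-79290992 rose from 29, 41 and 37 to 108, 116 and 127, and chr17:79305816-79306107 fell from 41, 41 and 24 to 10, 5 and 4. At Arhgef28, a gene for a guanine nucleotide exchange factor, 4 of 7 fell and 2 rose, and near L3mbtl3 the summed change was not called.

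Lists of genes with known roles in fibroblasts were used to ask which clusters lie in them or have them as the nearest protein-coding gene. Of 26 SRF target and actin genes, 6 had a cluster, 7 clusters in all, of which 2 were higher, 3 lower and 2 not called. Those at Actn1, an alpha-actinin gene, and Myh9, a non-muscle myosin gene, rose by 0.21 and 0.16, and those at Lima1 and Lpp (the one 149 kb away), genes of actin-binding or focal adhesion proteins, had log2 fold changes of -0.50 and -0.40. Of 25 matrix genes, 6 had a cluster: 4 were lower, 1 was higher and 1 was not called. The lower ones lay inside Col4a2 (-0.83) and 20.4, 44.7 and 82.3 kb from Col6a2 (-0.74), Col5a1 (-0.52) and Col1a2 (-0.39), all collagen genes, and the higher one lay partly in Fbn1 (0.21), the fibrillin 1 gene. At Col4a2 the sum went from 226 ± 1.06 (SD, n = 2) to 127 ± 16.4 (SD, n = 3), while the cluster in its neighbour Col4a1 was not called (0.04, limma adjusted p = 0.608).

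The remaining lists had few clusters. Of 31 mesenchymal transcription factor genes, 5 had a cluster; those at Prrx2 and Nfix (-0.26) were lower and those near Ets2 and Klf4 and in Smad3 were not called. Among 10 AP-1 genes, the cluster near Fos rose by 0.18 and that near Jun had -0.18. Of 15 inflammatory genes, Ptgs2, which encodes cyclooxygenase 2, had a cluster 51.7 kb away that rose by 0.38, and Csf1, the gene of a macrophage growth factor, had one that rose by 0.38 and one at the gene with -0.17. Of 21 growth factor signalling genes, the cluster in Met, a receptor gene, rose by 0.43 and that near Cd44 was not called. The only YAP/TEAD gene of 18 with a cluster was Arhgef17 (-0.43). Without the third GFP guide library the calls at Myh9, Lpp, Jun, Col1a2, Met, Arhgef17 and the Csf1 gene were lost, with limma adjusted p-values from 0.0567 to 0.143. That at Arhgef17 was also lost without the second Actg1 guide library (limma adjusted p = 0.0509), and that at the Csf1 gene under quantile normalization (0.0565). These counts are too small to set against the 60.6% of all clusters called.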

How the data were processed

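ATAC-seq regions of 3 GFP guide and 3 Actg1 guide libraries were analysed. The authors deposited 1 table with 1 signal value per region and library, which from its values is a normalized read count rounded to whole numbers; its formula is not stated there. Per the submitters' processing notes the build was mm10 and the tools, named without roles, were DESeq, DESeq2 1.36.0, featureCounts, Picard 3.0.0, STAR 2.7.10a and Trimmomatic 0.39. For peak calling and the Tn5 offset, the method is not given in the sources used here, and how peaks were merged bears on which regions neighbour each other. As the values were not raw counts, the fit for normalized values was used.

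Members and gene lists were chosen with earlier results of these data known. Regions that reached a signal of 10 in 3 or more of the 6 libraries were tested with limma 3.58.1 in R 4.3.3, with a mean-variance trend and a pseudocount of 1, over all 61327 such regions. The same fit was made on a table with each cluster summed to 1 row, and on each distal region minus the mean log2 signal of its tested neighbours. The scripts were tested on simulated data. Whole reads were estimated from the unevenness of small values, and on these reads the chi-square per region between GFP guide replicates 1 and 2 was 0.990 (p = 0.947 over 50824 regions), so these were averaged; other pairs within a group gave 1.04 to 1.13. Clusters were placed against protein-coding genes of the RefSeq table only. Named clusters were the 8 with most members, the 6 strongest, the 10 largest called rises and falls, and the 6 with the widest gap between called members. No batch is given in the labels. Alternatives were the 6 libraries kept separate, a replicate block, quantile normalization, a pseudocount of 5, no filter, leaving out each library, at least 6 nearby regions, and pairs at least 2 kb apart. Regions on the X chromosome were left out by the rule. One cluster of the gene lists is counted but not reported by name here.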

Additional observations from a re-analysis of the deposited data

How the results depend on the processing

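The third GFP guide library decided most. Leaving out 1 library at a time, the called members ranged from 626 to 1162 (1202 with all), the called clusters from 189 to 313 (324 with all) and the members that differed from their neighbours from 122 to 587 (628 with all), each lowest without GFP guide replicate 3, which leaves 1 GFP guide sample, assumed to vary like the Actg1 guide libraries. The direction shared by adjacent members was steadier, at 56.0% to 57.5% over all pairs (57.1% with all) and 67.5% to 72.5% where both were called (66.7% with all), and the between-cluster share of variance at 13.9% to 15.3%. With at least 6 nearby regions, 56.8% of all 162 pairs shared direction and 55.1% of the 49 with both called. With both members at a mean signal of at least 100, a setting chosen after seeing the data, 54.0% of all 272 pairs did and 69.7% of the 89 with both called. The causes were not tested. With 6 separate libraries 1303 members, 345 clusters and 834 differences from neighbours were called, and with the replicate block 1327, 350 and 672, within 1.5 times the main counts. The labels' replicate numbers were not taken as a pairing: deviations of same-numbered libraries correlated at 0.0252, 0.0138 and 0.0161, although each library correlated best with its own number.

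Small changes turned sign. Without 1 library, the summed change ranged from -0.0174 to 0.031 at Synj2, from -0.032 to 0.0015 at Plec, from -0.0374 to 0.0193 at Cd9 and from -0.0086 to 0.0478 at Tmem44, and at Synj2 it was -0.00025 with 6 libraries, with or without the replicate block. A region in the Lmna cluster ranged from -0.0416 to 0.0103 and had 0.0197 under quantile normalization, and one near Diras2 ranged from -0.0134 to 0.382. The Gm39701 cluster had 0 under quantile normalization by construction. Depth limits the weak members: 40 were not tested.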
